A study of Rattus norvegicus with 16 samples.

Results

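The immunoproteasome and the machinery that loads peptide onto MHC class I were followed through 10 genes in rat kidney cortex injured by an iron chelate. The genes were Psmb8, Psmb9, Psmb10, Psme1, Psme2, Tap1, Tap2, Tapbp, B2m and Nlrc5, and they were chosen by name. A probe belonged to the set when the gene name in its scanner record was one of these. This gave 14 of the 45598 probes on the array, with 2 probes each for Psmb8, Tap1, Tap2 and Nlrc5 and 1 for every other gene. Of the 10 genes, 9 passed the filter on dim probes and were among the 15987 genes tested. Tap1 did not pass and is described by its detection alone.

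The 16 arrays came from male Jcl:SD rats, a Sprague-Dawley stock, of genotypes BRCA1+/- and wild type (WT), 8 arrays each. BRCA1 is a repair gene of homologous recombination, and the rats entered the injury protocol as 18 BRCA1+/- and 17 WT animals. Fe-NTA (ferric nitrilotriacetate), an iron chelate that injures the proximal tubule by oxidation, was injected intraperitoneally from 4 weeks of age, 5 times a week. Each injection held 5 mg iron/kg for 2 days, then 7 mg iron/kg for the 3 left in week 1, and 10 mg iron/kg in weeks 2 and 3. The 6 groups were BRCA1+/- after 1 week (3 arrays), BRCA1+/- after 3 weeks (3), untreated BRCA1+/- (2), WT after 1 week (3), WT after 3 weeks (3) and untreated WT (2), with treated cortex taken 48 h after the last injection. For the untreated rats the labels state neither age nor vehicle nor when cortex was taken, so age and treatment cannot be told apart. Rats given Fe-NTA for 3 weeks were also older and had higher doses than those given it for 1 week, and time, age and dose cannot be told apart. The labels do not state how the BRCA1 mutation was made. Nor do they tie each array to a rat of its own, and p-values here measure only the spread between these samples, which may be technical.

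The proteasome cuts cytosolic proteins into peptides with 3 catalytic beta subunits, encoded by Psmb5, Psmb6 and Psmb7. Interferon gamma and related signals induce alternative subunits, encoded by Psmb8, Psmb9 and Psmb10, which replace them in newly assembled particles and form the immunoproteasome. Psme1 and Psme2 encode the alpha and beta chains of the PA28 cap, which opens the particle. Tap1 and Tap2 form the transporter that carries the peptides into the endoplasmic reticulum, Tapbp encodes tapasin, which bridges the transporter and empty class I molecules, and B2m encodes beta-2-microglobulin, the light chain of every class I molecule. Nlrc5 is a transcriptional activator of class I genes. Kidney tubule cells raise parts of this machinery in inflammation.

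The genes lie together in part. In the RefSeq annotation of the rat assembly GRCr8, 5 of the 10 are on chromosome 20, where Tap2, Psmb8, Tap1 and Psmb9 are neighbours in the MHC class II region and Tapbp stands further along. Psme1 and Psme2 are on chromosome 15, Psmb10 and Nlrc5 on chromosome 19 and B2m on chromosome 3. Tap1 and Psmb9 are read in opposite directions from starts 457 bases apart, so that their promoter windows share 44 bases.

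Promoter sequence is shown because these genes are known as interferon targets, and it lets a reader see the letters behind that. The choice of the genes is therefore not independent of the sites searched. Windows of 250 bases before to 50 bases after the start were available in the RefSeq promoter table for 9 of the 10 genes, all but Nlrc5. The core of the interferon-stimulated response element, the site bound by IRF and ISGF3 factors, was searched as a pair of GAAA half-sites with any 2 bases between them, on both strands. It was present in 7 of these 9 windows, against 3.77% of all 27457 promoter windows of the same length, and in 0 of the 3 windows of the standard subunits Psmb5, Psmb6 and Psmb7. The 7 stretches are given 5′ to 3′ on the strand of the gene, with the core in capitals. In B2m the second run in capitals is a kappa-B site, the letters bound by NF-kappa-B, and in Tapbp 2 overlapping cores run together.
Psmb8, chr20:4657006-4657055, minus strand: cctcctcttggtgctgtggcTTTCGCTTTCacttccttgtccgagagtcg
Psmb10, chr19:50743336-50743385, minus strand: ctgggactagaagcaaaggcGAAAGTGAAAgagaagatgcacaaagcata
Psme2, chr15:33052775-33052824, minus strand: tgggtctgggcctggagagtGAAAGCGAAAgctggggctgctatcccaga
Tap1, chr20:4668635-4668684, minus strand: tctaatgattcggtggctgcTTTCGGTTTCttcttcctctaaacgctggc
Tap2, chr20:4652308-4652357, minus strand: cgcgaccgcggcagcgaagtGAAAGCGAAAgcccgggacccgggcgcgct
Tapbp, chr20:4967874-4967923, minus strand: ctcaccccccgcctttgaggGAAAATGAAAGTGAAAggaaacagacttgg
B2m, chr3:129549160-129549209, plus strand: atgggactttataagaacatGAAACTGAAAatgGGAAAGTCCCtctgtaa

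Counted from the start of the gene, the first base of the core was at -4 in Psmb8, -53 in Psme2, -121 in Tap1, -41 in Tap2, and -150 in B2m. Psmb10 held cores at -73 (the one printed) and -17, and Tapbp held cores at -26 and -20. Psmb9 and Psme1 held none in their windows, and the core printed for Tap1 lies in the stretch between the Tap1 and Psmb9 starts. The kappa-B letters, those of the second run in B2m on either strand, were in 2 of the 9 windows, Tap1 at -55 and B2m at -137, against 0.0947% of all windows. The CCAAT box was in 3 of 9, against 37.7% of all windows. A match is a description of letters and not a measured site.

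Levels are given as the scaled log2 signal, the log2 of the spot signal minus the 75th percentile of its array, so that 0 is the level of that percentile. A gene was called changed at a Benjamini-Hochberg adjusted p under 0.05 in limma, adjusted over all 15987 genes. Between 32.6% and 60.3% of probes were well above background on an array, and no spot was saturated. Arrays of 1 group correlated at 0.964 to 0.981 across genes, except that WT 1-week replicate 3 correlated at 0.905 and 0.908 with its group. Without it the log2 changes in WT after 1 week were 3.25 for Psmb8, 2.59 for Psmb9, 1.94 for Psmb10, 1.40 for Psme2, 2.76 for Tap2, 1.47 for Tapbp and 2.24 for Nlrc5, all called as with it (adjusted p from limma at most 0.000399), and 1.00 for Psme1, called without it alone. B2m was -0.47 and not called with or without it. The Brca1 probe read on these arrays did not differ between BRCA1+/- and WT cortex in any condition (adjusted p from limma 0.69 after 1 week, 0.88 after 3 weeks and 0.999 untreated). The labels do not say where this probe lies relative to the mutation, so it checks nothing about them. In bulk cortex, fewer cells of a type and less RNA per cell cannot be told apart.

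**Figure D1:**
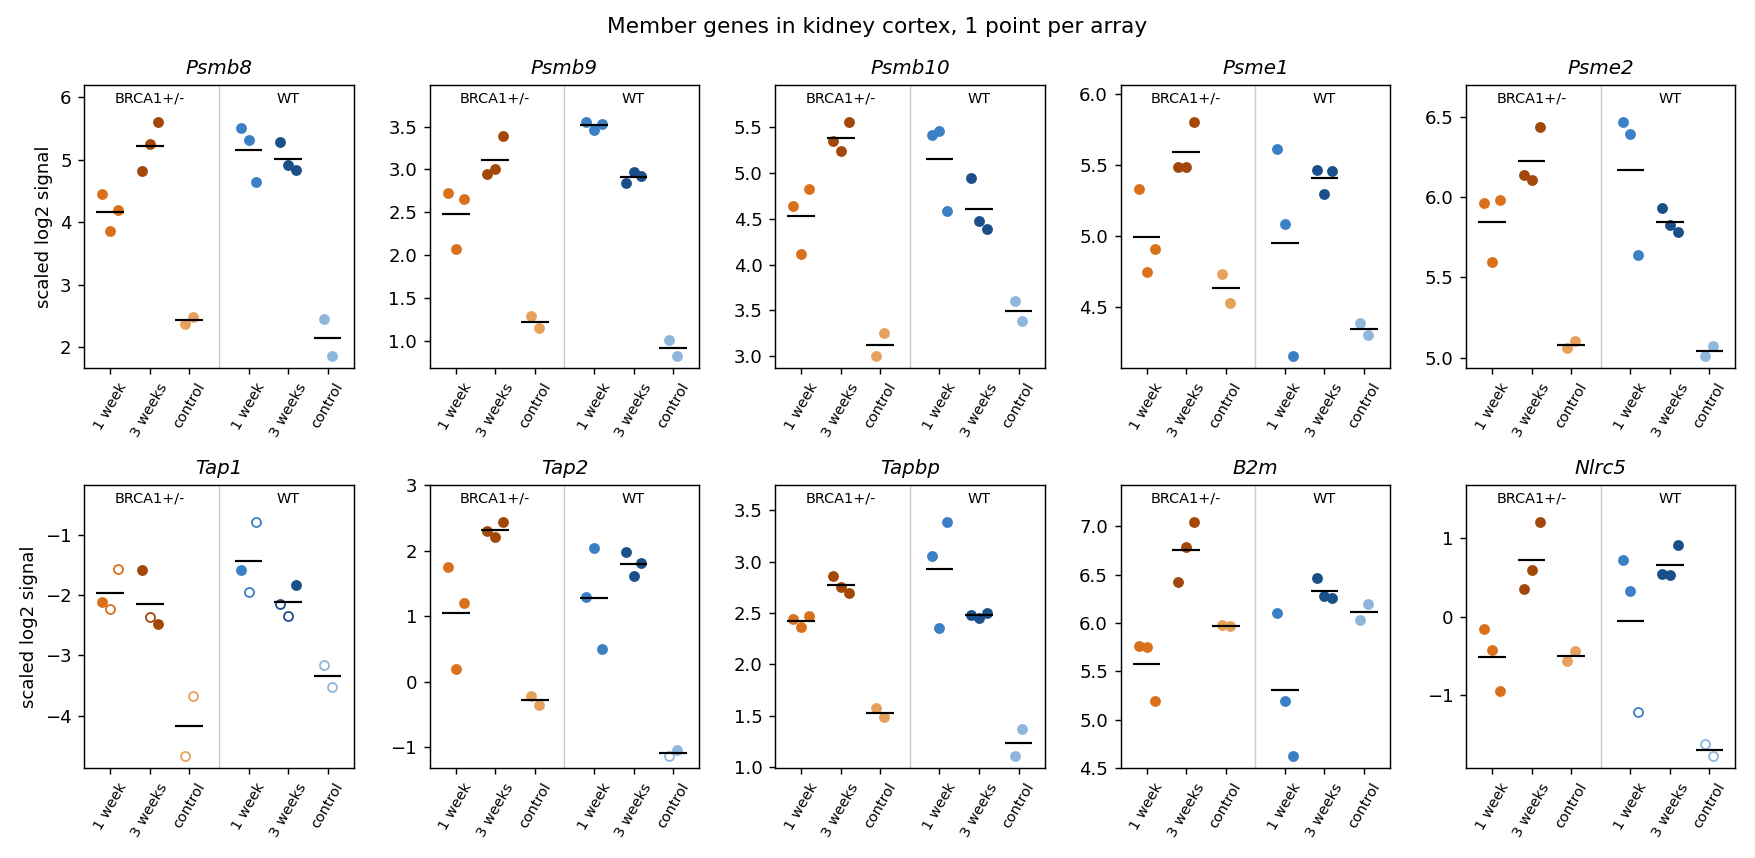
Scaled log2 signal of the 10 genes (vertical axis) on each of the 16 arrays, 1 point per array, with BRCA1+/- left and WT right of the grey line and the columns after 1 week of Fe-NTA, after 3 weeks and untreated (control); the black line is the group mean and open points are arrays not well above background, where the value is only a stand-in. For Psmb8, Psmb9 and Psmb10 every treated point lies above every untreated point of its genotype, and Tap1 is mostly open.

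Fe-NTA cortex carried more RNA for most of this machinery than untreated cortex of the same genotype. In BRCA1+/- rats 3 of the 9 tested genes rose after 1 week (Psmb8, Psmb9 and Psmb10), where 4.2% of all tested genes were called higher, and 6 rose after 3 weeks, where 9.3% of all genes were called higher. In WT rats 7 of 9 rose after 1 week, against 12.8% of all genes, and 7 of 9 after 3 weeks, against 8.74%. None fell in any of the 4 comparisons, where 3.17% and 6.52% of all genes were called lower in BRCA1+/- after 1 and 3 weeks and 14.3% and 5.54% in WT. The BRCA1+/- count after 1 week was 0 without untreated replicate 1, 1 without untreated replicate 2 and 1 with normexp background correction, and the WT count after 3 weeks was 4 without untreated replicate 1 or with no filter on dim probes. The median log2 change over the 9 genes was 0.90 after 1 week and 1.24 after 3 weeks in BRCA1+/- and 1.66 and 1.24 in WT, while the median over all tested genes lay between -0.04 and 0.01.

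Separation of the arrays was counted too. Every treated array lay above every untreated array for 7 of the 9 genes in BRCA1+/- after 1 week, where that held for 21.1% of all genes, and B2m lay wholly below, as 23.8% of all genes did. It held for 9 of 9 in BRCA1+/- after 3 weeks, against 32.1% of all genes. In WT it held for 7 of 9 after 1 week, against 20.2%, and for 9 of 9 after 3 weeks, against 28.2%. With 3 arrays against 2, complete separation alone is common.

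**Figure D2:**
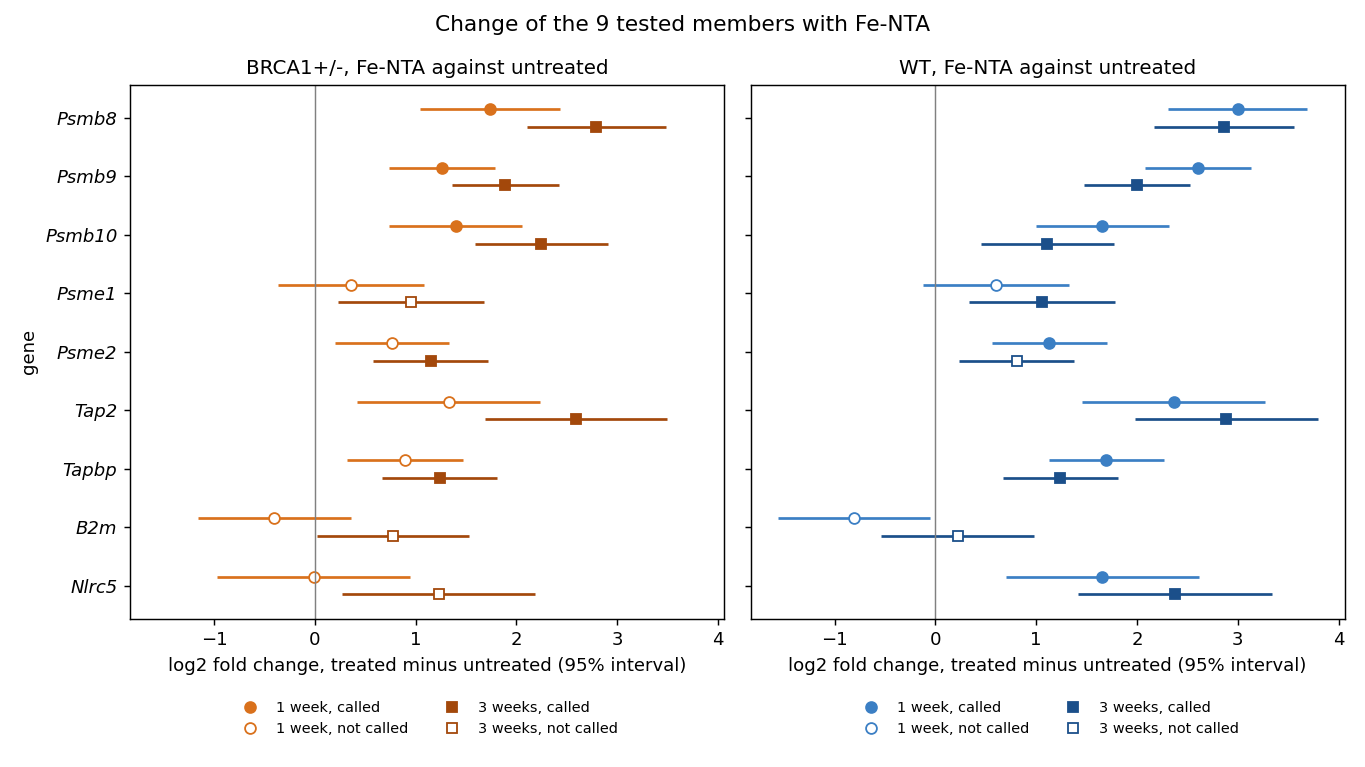
Log2 fold change of the 9 tested genes (horizontal axis, treated minus untreated, bars are 95% intervals) in BRCA1+/- (left) and WT (right), circles after 1 week and squares after 3 weeks of Fe-NTA, filled where called at an adjusted p under 0.05. Psmb8 and Psmb9 are filled at both times in both genotypes and B2m is open throughout. The WT points of Nlrc5 are fitted against control arrays not well above background, and the text gives a lower bound for the one after 3 weeks.

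Among the catalytic subunits, Psmb8 (beta 5i, chymotrypsin-like cutting) changed most. On the brighter of its probes (chr20:4786260-4786319, minus strand, rn4 in the file headers) it stood at 4.45, 3.85 and 4.20 in BRCA1+/- cortex after 1 week and at 4.82, 5.25 and 5.59 after 3 weeks, against 2.38 and 2.49 untreated. The WT values were 5.50, 5.31 and 4.63 after 1 week and at 5.29, 4.92 and 4.84 after 3 weeks, against 2.45 and 1.85 untreated. Treated and untreated arrays did not overlap in either genotype. Psmb8 rose by 1.74 ± 0.32 (SE) on the log2 scale in BRCA1+/- after 1 week, or 3.34-fold (adjusted p from limma 0.00487), and by 2.79 ± 0.32 after 3 weeks, or 6.92-fold (adjusted p from limma 9.8e-05). Without untreated BRCA1+/- replicate 1 the 1-week call ended (1.68, adjusted p from limma 0.0579). In WT it rose by 3.00 ± 0.32 after 1 week, or 7.99-fold (adjusted p from limma 1.9e-05), and by 2.86 ± 0.32 after 3 weeks, or 7.28-fold (adjusted p from limma 0.000107).

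The brighter Psmb8 probe is described in the file as matching a cDNA with an apparent retained intron, so the second probe was read as a separate measure. The second probe was well above background on 12 of 16 arrays, the treated ones, and on none of the 4 untreated arrays. Its treated values ran from -0.60 to 1.02 in BRCA1+/- cortex and from 0.41 to 1.27 in WT cortex. Both probes of Psmb8 therefore separated treated from untreated cortex in both genotypes.

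Psmb9 (beta 1i) is encoded back to back with Tap1 and is the gene without an interferon core in its window among the catalytic subunits. On its probe (chr20:4806341-4806400, plus strand, rn4) it stood at 2.73, 2.08 and 2.65 in BRCA1+/- cortex after 1 week and at 2.95, 3.00 and 3.39 after 3 weeks, against 1.29 and 1.15 untreated. WT cortex gave 3.55, 3.46 and 3.54 after 1 week and at 2.84, 2.98 and 2.92 after 3 weeks, against 1.01 and 0.82 untreated. All treated arrays were above all untreated ones, and the WT arrays of each time lay close together. It rose by 1.26 ± 0.25 and 1.89 ± 0.25 (log2, SE) in BRCA1+/- after 1 and 3 weeks (adjusted p from limma 0.00685 and 0.000229). In WT it rose by 2.60 ± 0.25 and 2.00 ± 0.25 after 1 and 3 weeks (adjusted p from limma 8e-06 and 0.000202). With no filter on dim probes the BRCA1+/- call after 1 week ended (adjusted p from limma 0.0572). In BRCA1+/- after 1 week the call ended in 2 of 5 cases that left out 1 array, those of untreated replicates 1 and 2 (adjusted p 0.0027 to 0.0733) and with normexp background correction (0.91, adjusted p 0.0701).

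Psmb10 (beta 2i, trypsin-like cutting) was raised as well. On its probe (chr19:35777711-35777770, minus strand, rn4) it stood at 4.64, 4.12 and 4.82 in BRCA1+/- cortex after 1 week and at 5.34, 5.24 and 5.55 after 3 weeks, against 3.00 and 3.26 untreated. WT arrays read 5.41, 5.46 and 4.58 after 1 week and at 4.94, 4.48 and 4.38 after 3 weeks, against 3.60 and 3.39 untreated. Treated arrays lay above untreated ones throughout, and the lowest treated value of WT after 1 week was that of replicate 3. Psmb10 rose by 1.40 ± 0.31 and 2.25 ± 0.31 (log2, SE) in BRCA1+/- after 1 and 3 weeks (adjusted p from limma 0.0135 and 0.000342). In WT it rose by 1.66 ± 0.31 and 1.11 ± 0.31 after 1 and 3 weeks (adjusted p from limma 0.00118 and 0.0272). With no filter on dim probes the calls in WT after 3 weeks and in BRCA1+/- after 1 week ended (adjusted p from limma 0.123 and 0.0743). With normexp background correction the call in BRCA1+/- after 1 week ended too (adjusted p from limma 0.0626). Leaving out 1 array ended the call in WT after 3 weeks in 4 of 5 cases, all but 3-week replicate 3 (adjusted p 0.0418 to 0.188), and in BRCA1+/- after 1 week in 3 of 5, those of untreated replicates 1 and 2 and 1-week replicate 3 (adjusted p 0.00907 to 0.134).

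The standard subunits that these 3 replace were not called in any of the 4 comparisons. Psmb5 (beta 5) stood between 3.48 and 4.26 in treated BRCA1+/- cortex, against 3.81 and 3.82 untreated, and between 3.18 and 4.00 in treated WT cortex, against 3.89 and 4.11 untreated. Psmb6 (beta 1) stood between 4.78 and 5.58 in treated BRCA1+/- cortex, against 5.61 and 5.46 untreated, and between 4.53 and 5.54 in treated WT cortex, against 5.58 and 5.76 untreated. Psmb7 (beta 2) stood between 1.58 and 1.86 in treated BRCA1+/- cortex, against 1.92 and 1.83 untreated, and between 1.52 and 2.84 in treated WT cortex, against 1.92 and 2.14 untreated. Taken by time, every treated array lay below every untreated one for Psmb6 in BRCA1+/- after 1 week, as for 23.8% of all genes. It did so too for Psmb5 in WT after 1 week, Psmb6 in WT at both times and Psmb7 after 3 weeks in both genotypes. The share of all genes is not given for these. With 3 arrays against 2 such separation is common and is not read as a fall. The log2 changes of the standard subunits ran from -0.64 (Psmb6, WT after 1 week, adjusted p from limma 0.0914) to 0.34 (Psmb7, WT after 1 week, adjusted p from limma 0.36), each with an SE of 0.25 to 0.27.

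**Figure D3:**
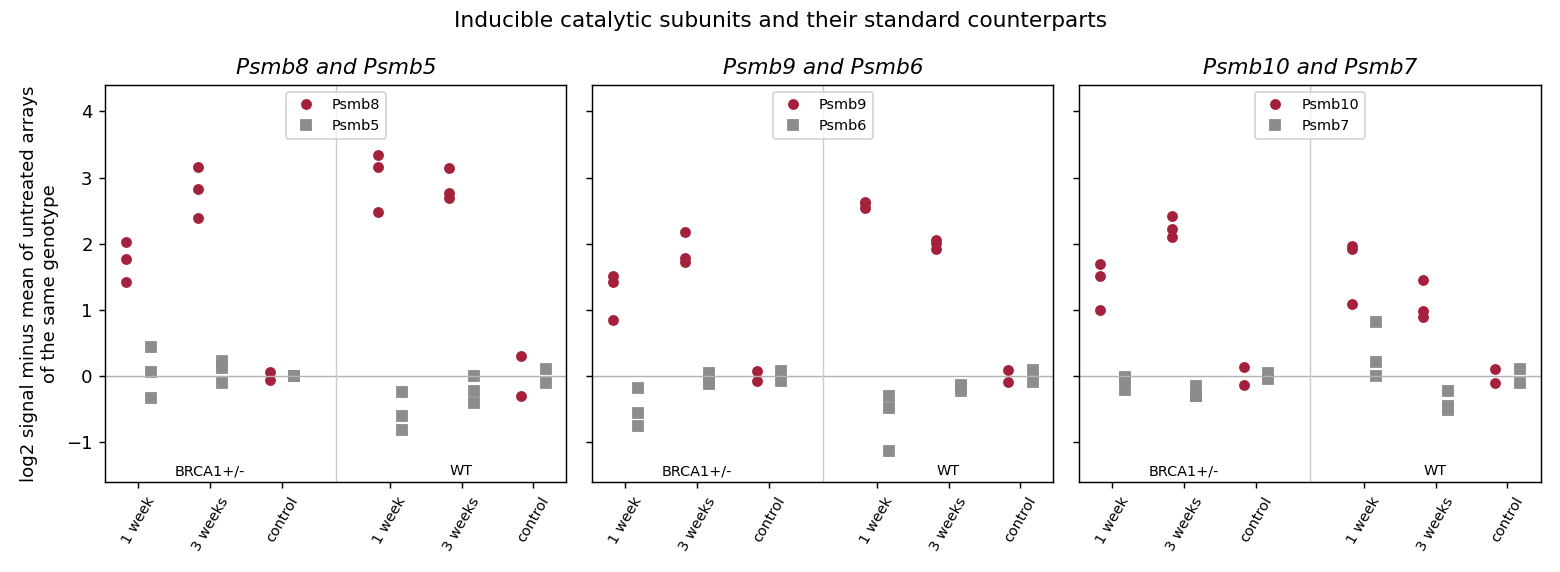
Each inducible catalytic subunit (red circles) and the standard subunit it replaces (grey squares), as the log2 signal of each array minus the mean of the untreated arrays of its genotype (vertical axis), with BRCA1+/- left and WT right of the grey line. In every treated group all circles lie above all squares of the same panel.

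The PA28 cap was raised less, and with all arrays its chains did not pass the test together in any comparison. Both passed in WT after 1 week without replicate 3 or with quantile normalization, in BRCA1+/- after 3 weeks with quantile normalization or with only the groups compared in the fit, and in WT after 3 weeks with either of these or with the mean of a gene's probes. Psme2 (PA28 beta) stood at 5.96, 5.60 and 5.98 in BRCA1+/- cortex after 1 week and at 6.14, 6.11 and 6.44 after 3 weeks, against 5.06 and 5.10 untreated. For WT the values were 6.47, 6.40 and 5.64 after 1 week and at 5.93, 5.83 and 5.78 after 3 weeks, against 5.01 and 5.07 untreated. All treated arrays lay above the untreated ones, yet 2 of the 4 changes were called. Psme2 rose by 1.15 ± 0.27 (log2, SE) in BRCA1+/- after 3 weeks (adjusted p from limma 0.0109) and by 1.13 ± 0.27 in WT after 1 week (adjusted p from limma 0.00572). The WT call ended with only the groups compared in the fit (adjusted p from limma 0.132). With no filter on dim probes the BRCA1+/- call ended (adjusted p from limma 0.0678). The BRCA1+/- call ended without untreated replicate 1 or 2 (adjusted p from limma 0.0842 and 0.0715). The other changes were 0.77 ± 0.27 in BRCA1+/- after 1 week (adjusted p from limma 0.0954) and 0.81 ± 0.27 in WT after 3 weeks (adjusted p from limma 0.0561), which was called in 5 of 9 alternatives (adjusted p 0.00589 to 0.227).

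On its probe (chr15:33715651-33715710, plus strand, rn4) Psme1 (PA28 alpha) stood at 5.33, 4.75 and 4.91 in BRCA1+/- cortex after 1 week and at 5.48, 5.49 and 5.80 after 3 weeks, against 4.74 and 4.53 untreated. WT cortex read 5.61, 5.09 and 4.15 after 1 week and at 5.47, 5.30 and 5.46 after 3 weeks, against 4.39 and 4.31 untreated. Replicate 3 of WT after 1 week lay below both untreated arrays and the other 2 above them. The change was 0.36 ± 0.34 (log2, SE) in BRCA1+/- after 1 week (adjusted p from limma 0.578), 0.95 ± 0.34 after 3 weeks (adjusted p 0.0684) and 0.60 ± 0.34 in WT after 1 week (adjusted p 0.215). Without replicate 3 the WT change after 1 week was 1.00 and was called (adjusted p from limma 0.00748). The change of 1.06 ± 0.34 in WT after 3 weeks was called at an adjusted p from limma of 0.0496, and leaving out any 1 of its 5 arrays ended the call (adjusted p 0.0924 to 0.226).

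The other activators gave a mixed picture. Psme3, which encodes the nuclear cap PA28 gamma, rose by 1.19 ± 0.31 (log2, SE) in WT after 1 week (adjusted p from limma 0.00953; 1 of 2 untreated arrays above background), with values not called in the other 3 comparisons (0.33 to 0.85). Psme4, which encodes the cap PA200, fell by 1.40 ± 0.37 in WT after 1 week (adjusted p from limma 0.0111), with values of -0.78 to -0.21 not called elsewhere. Pomp, the assembly chaperone of the particle, changed by -0.35 to -0.03 and was not called. Over the 6 counterparts the median change was -0.06 and -0.04 in BRCA1+/- after 1 and 3 weeks and -0.31 and -0.28 in WT, and with normexp background correction these medians ran from 0.01 to 0.22, so they carry no direction. Of the 11 other subunits of the core particle, 1 was called in 1 comparison, Psmb1, which fell by 0.77 ± 0.22 in WT after 3 weeks (adjusted p from limma 0.0324).

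Of the peptide transporter, Tap2 gave the clearer reading. On its brighter probe (chr20:4770555-4770614, minus strand, rn4) it stood at 1.75, 0.20 and 1.19 in BRCA1+/- cortex after 1 week and at 2.30, 2.20 and 2.43 after 3 weeks, against -0.21 and -0.35 untreated. In WT cortex it stood at 1.30, 2.04 and 0.50 after 1 week and at 1.98, 1.61 and 1.81 after 3 weeks, against -1.13 and -1.04 untreated, where 1 of the 2 untreated arrays was well above background. Treated arrays lay above untreated ones in both genotypes, and the 1-week arrays spread more widely than the 3-week arrays. Tap2 rose by 2.59 ± 0.42 (log2, SE) in BRCA1+/- after 3 weeks (adjusted p from limma 0.00118), by 2.36 ± 0.42 in WT after 1 week (adjusted p from limma 0.000872) and by 2.89 ± 0.42 in WT after 3 weeks (adjusted p from limma 0.000629). With normexp background correction the WT change after 1 week was 1.00 and not called (adjusted p from limma 0.0622), and the one after 3 weeks was 1.41. After 1 week in BRCA1+/- the change was 1.33 ± 0.42 (adjusted p from limma 0.0725), and without replicate 2 of that group it was 1.75 and called (adjusted p from limma 0.0159). The second Tap2 probe gave log2 changes of 1.42 and 2.25 in BRCA1+/- after 1 and 3 weeks. Adjusted over the kept probes, its 1-week change passed (adjusted p from limma 0.0299). The mean of the probes gave 1.37 there and was called (adjusted p from limma 0.00493). For BRCA1+/- against WT after 1 week the brighter and second probes gave -0.23 and -1.22. For 3 weeks against 1 week in WT they gave 0.52 and -0.34, and none of these was called. In BRCA1+/- 1 of 2 untreated arrays was well above background on the second probe. In WT neither untreated array was, and this probe was at least 3.16-fold higher after 1 week and at least 2.50-fold higher after 3 weeks.

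Tap1 was too dim for a test on either probe. The probe seen on more arrays was well above background on 5 of 16, namely 1 of 3 BRCA1+/- arrays after 1 week, 2 of 3 after 3 weeks, and 1 of 3 WT arrays at each time, and on none of the 4 untreated arrays. The other probe was well above background on 4 of 16 arrays, 2 of them BRCA1+/- after 3 weeks and 2 of them WT, 1 at each time. No fold is given, since most treated arrays gave no reading of Tap1 either.

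Tapasin RNA rose in 3 of the 4 comparisons. Tapbp, by its RNA signal, stood at 2.44, 2.36 and 2.47 in BRCA1+/- cortex after 1 week and at 2.86, 2.75 and 2.69 after 3 weeks, against 1.57 and 1.49 untreated. WT arrays gave 3.05, 2.36 and 3.38 after 1 week and at 2.48, 2.45 and 2.50 after 3 weeks, against 1.10 and 1.37 untreated. No treated array reached down to an untreated one. Tapbp rose by 1.24 ± 0.27 (log2, SE) in BRCA1+/- after 3 weeks (adjusted p from limma 0.00725), by 1.70 ± 0.27 in WT after 1 week (adjusted p from limma 0.000335) and by 1.24 ± 0.27 in WT after 3 weeks (adjusted p from limma 0.00699). With no filter on dim probes the call in WT after 3 weeks ended (adjusted p from limma 0.052). The call in BRCA1+/- ended without untreated replicate 1 or 2 (adjusted p from limma 0.0538 and 0.0672), and that in WT after 3 weeks without untreated replicate 1 (adjusted p from limma 0.0743). The change of 0.90 ± 0.27 in BRCA1+/- after 1 week was not called (adjusted p from limma 0.0566).

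B2m, the light chain, was the tested gene that passed in none of the 4 comparisons although its window holds both an interferon core and a kappa-B site. On its probe (chr3:108933795-108933854, plus strand, rn4) it stood at 5.76, 5.75 and 5.19 in BRCA1+/- cortex after 1 week and at 6.42, 6.78 and 7.04 after 3 weeks, against 5.98 and 5.96 untreated. WT cortex stood at 6.11, 5.19 and 4.62 after 1 week and at 6.47, 6.27 and 6.26 after 3 weeks, against 6.03 and 6.20 untreated. The 1-week arrays lay below the untreated ones in BRCA1+/- and around or below them in WT, and the 3-week arrays lay above them in both. The changes were -0.40 ± 0.35 and 0.78 ± 0.35 (log2, SE) in BRCA1+/- after 1 and 3 weeks (adjusted p from limma 0.551 and 0.14) and -0.81 ± 0.35 and 0.22 ± 0.35 in WT (adjusted p from limma 0.108 and 0.724). The WT change after 1 week varied with the array left out: without replicate 1 it was -1.21 and was called (adjusted p from limma 0.00943), and without replicate 3 it was -0.47 and was not (adjusted p from limma 0.268).

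Nlrc5, the class I activator, was raised in WT cortex. On its brighter probe (chr19:10917123-10917182, minus strand, rn4) it stood at 0.73, 0.33 and -1.22 in WT after 1 week and at 0.54, 0.53 and 0.92 after 3 weeks, against -1.63 and -1.79 untreated. The untreated WT arrays and replicate 3 after 1 week were not well above background. After 1 week the fitted change was 1.66 ± 0.45 (log2, SE, adjusted p from limma 0.0131). No lower bound is given for it, since 2 of 3 treated arrays were above background. Against the untreated arrays' own limit, Nlrc5 was at least 4.07-fold higher after 3 weeks (adjusted p from limma 0.00317). With dim values set to 1 limit for all arrays the 1-week change was 1.05 on the log2 scale and was not called (adjusted p from limma 0.12), nor was it with only the groups compared (adjusted p 0.105). With normexp background correction the fitted log2 changes were 0.41 and 0.66 and neither was called (adjusted p from limma 0.244 and 0.0801), and the 1-week call ended without untreated replicate 1 or 2 (adjusted p from limma 0.0584 and 0.0894). In BRCA1+/- cortex it stood at -0.16, -0.43 and -0.95 after 1 week and at 0.36, 0.60 and 1.21 after 3 weeks, against -0.56 and -0.45 untreated, all well above background. The 1-week arrays overlapped the untreated ones, with a change of -0.01 ± 0.45 (log2, SE, adjusted p from limma 0.994), and the 3-week arrays did not, with 1.23 ± 0.45 (adjusted p from limma 0.0755). The second Nlrc5 probe was well above background on 2 of 16 arrays and gives no reading.

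Between the times of treatment, no gene of the set was called. In BRCA1+/- all 9 tested genes were higher after 3 weeks than after 1 week with no overlap of arrays, where 12.8% of all genes were, yet 0 were called by limma, where 0.306% of all genes were called. At an unadjusted p under 0.05 there were 6 of 9, against 1868 of the 15987 genes. The largest differences were 1.26 ± 0.38 (log2, SE) for Tap2 (adjusted p from limma 0.193), 1.24 ± 0.40 for Nlrc5 (0.247), 1.18 ± 0.32 for B2m (0.139) and 1.05 ± 0.29 for Psmb8 (0.146). In WT 4 of 9 were higher after 3 weeks than after 1 week and 0 were called, where 8.33% of all genes were, with 2 at an unadjusted p under 0.05, as were 3771 of the 15987 genes. Arrays did not overlap for B2m, higher after 3 weeks as 15.8% of all genes were, and for Psmb9, lower as 9.33% were. B2m was 1.03 ± 0.32 higher (adjusted p from limma 0.0594), and Psmb9 was 0.60 ± 0.22 lower after 3 weeks than after 1 week (adjusted p from limma 0.11). B2m passed without WT 1-week replicate 1 (1.43, adjusted p from limma 0.00608) and was 0.69 without replicate 3 (adjusted p 0.163), and Tapbp, at -0.46 with all arrays, passed at -0.74 without replicate 2 of that group (adjusted p from limma 0.0482).

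Between the genotypes, BRCA1+/- and WT cortex were not separated by the test on any of these genes. Untreated, 0 of 9 were called by limma, with 1 at an unadjusted p under 0.05 (747 of all genes), and 0% of all genes were called. That gene was Nlrc5, 1.21 ± 0.49 (log2, SE) higher in BRCA1+/- (adjusted p from limma 0.999), where both WT arrays were not well above background. With 2 arrays against 2, 5 of the 9 were higher in BRCA1+/- with no overlap, as 20.5% of all genes were, and 2 were lower, as 23.3% were. After 1 week 0 of 9 were called, with 3 at an unadjusted p under 0.05 (2021 of all genes), and 0.563% of all genes were called. Psmb9 was 1.03 ± 0.22 lower in BRCA1+/- (95% interval -1.50 to -0.56, adjusted p from limma 0.0514) and Psmb8 was 0.98 ± 0.29 lower (-1.60 to -0.36, adjusted p from limma 0.15), with no overlap between the genotypes for either, as for 4.55% of all genes. Without WT 1-week replicate 3 the differences were -1.02 for Psmb9 and -1.24 for Psmb8, not called (adjusted p from limma 0.0953 and 0.0973), and that of Nlrc5 was -1.04, against -0.46 with all arrays. After 3 weeks 0 of 9 were called, with 1 at an unadjusted p under 0.05 (929 of all genes), and 0% of all genes were called. That gene was Psmb10, 0.77 ± 0.28 higher in BRCA1+/- (adjusted p from limma 0.81), and it was 1 of 5 genes higher with no overlap, as 12% of all genes were.

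The test of whether the response to Fe-NTA differed between the genotypes called 0 of 9 genes at 1 week (3 at an unadjusted p under 0.05, as were 1221 of all genes) and 0 of 9 at 3 weeks (1 at an unadjusted p under 0.05, as were 757 of all genes), in limma, as it called 0% of all genes at both times. At 1 week the response in BRCA1+/- minus that in WT was -1.34 ± 0.35 (log2, SE) for Psmb9 (adjusted p from limma 0.294) and -1.26 ± 0.46 for Psmb8 (adjusted p 0.512). For Nlrc5 the fitted value was -1.67 ± 0.64 (adjusted p from limma 0.531), but untreated WT arrays gave no reading above background, and it was -0.38 with normexp background correction and -1.06 when dim values were set to 1 limit. At 3 weeks it was 1.14 ± 0.44 for Psmb10 (adjusted p from limma 0.977) and -0.07 ± 0.46 for Psmb8, with an interval of -1.05 to 0.90. So 3 genes called in BRCA1+/- after 1 week against 7 in WT is a count of calls and not a tested difference. The change from 1 to 3 weeks in BRCA1+/- minus that in WT, a comparison added after the values were seen, was above 0 for all 9 genes, with 0 called, where 0.119% of all genes were called, and 4 at an unadjusted p under 0.05, as were 1614 of the 15987 genes. It was 1.40 ± 0.39 for Psmb10 (adjusted p from limma 0.173), 1.23 ± 0.31 for Psmb9 (0.124) and 1.19 ± 0.41 for Psmb8 (0.282).

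The levels of Psmb9 ran in the order WT after 1 week (3.52 ± 0.05, SD, n = 3), BRCA1+/- after 3 weeks (3.12 ± 0.24, n = 3), WT after 3 weeks (2.91 ± 0.07, n = 3), BRCA1+/- after 1 week (2.48 ± 0.36, n = 3), untreated BRCA1+/- (1.22 ± 0.10, n = 2) and untreated WT (0.91 ± 0.14, n = 2). Of the neighbours in that order, only BRCA1+/- after 1 week and untreated BRCA1+/- were called different among the pairs tested. Psmb8 ran BRCA1+/- after 3 weeks (5.22 ± 0.39), WT after 1 week (5.15 ± 0.45), WT after 3 weeks (5.02 ± 0.24), BRCA1+/- after 1 week (4.17 ± 0.30), untreated BRCA1+/- (2.43 ± 0.08) and untreated WT (2.15 ± 0.42), with the same single call between tested neighbours.

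Within each of the 2 slides, which both held all 6 groups, the picture kept its direction. The median change over the 9 genes was 0.91 on slide 1 and 0.93 on slide 2 in BRCA1+/- after 1 week, 1.77 and 1.32 in BRCA1+/- after 3 weeks, 1.61 and 1.86 in WT after 1 week and 1.32 and 1.40 in WT after 3 weeks. Psmb8 changed by 2.08 and 1.54, 3.22 and 2.55, 3.21 and 2.86, and 3.25 and 2.39 in the same order. The difference between BRCA1+/- and WT after 1 week was less even, with a median of -0.09 on slide 1 and -0.99 on slide 2.

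Across the 16 arrays most of the genes moved together. Each gene, set against the mean of the other 8, had a Pearson r of 0.96 for Psmb8, 0.945 for Tap2, 0.936 for Psme2, 0.903 for Psmb10, 0.883 for Psmb9, 0.863 for Psme1, 0.841 for Nlrc5, 0.774 for Tapbp and 0.221 for B2m. These arrays share the treatment groups and an array-wide scale, so the values describe the profile and carry no test. Among 11347 other genes with a plain symbol, those most like the mean of the 9 were Parp14 (r = 0.981), Mfsd12 (0.975), Impdh1 (0.974), Cplx2 (0.971), Adora1 (0.970) and Snph (0.970). Parp14, a member of the list of other interferon-stimulated genes, rose in all 4 comparisons (adjusted p from limma at most 0.0126). It was picked here for likeness to a mean that was itself higher in treated cortex, so its rise is not separate support.

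The steps around loading in the endoplasmic reticulum were followed in 9 of 10 listed genes, chaperones and peptidases. In BRCA1+/- cortex 2 of 9 rose at each time, and in WT cortex 2 of 9 after 1 week and 1 of 9 after 3 weeks, with none lower. Across all tested genes, 4.2% and 9.3% were called higher in BRCA1+/- after 1 and 3 weeks and 12.8% and 8.74% in WT. Of the 9, 1 passed the filter through treated groups alone. Among the other 8, 1 and 1 rose in BRCA1+/- and 1 and 0 in WT, where they did not exceed the shares of all genes. The gene that passed through treated groups alone was Tapbpl, the tapasin-like editor that exchanges peptides on class I. Tapbpl was called higher in all 4, but could hardly have been called lower. It rose by 1.98 ± 0.48 and 3.04 ± 0.48 (log2, SE) in BRCA1+/- after 1 and 3 weeks (adjusted p from limma 0.0228 and 0.000968), where 1 of 2 untreated arrays was above background. It was at least 3.20-fold and at least 3.39-fold higher in WT after 1 and 3 weeks (adjusted p from limma 9.32e-05 and 0.000291), where neither untreated array was. Hspa5, the general chaperone BiP, rose after 1 week by 0.88 ± 0.25 in BRCA1+/- and by 0.76 ± 0.25 in WT (adjusted p from limma 0.049 and 0.0381). Erap1, which trims peptides to class I length, rose by 1.65 ± 0.41 in BRCA1+/- after 3 weeks (adjusted p from limma 0.016).

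Class I heavy chains, the partners of B2m, were followed in 40 listed genes, of which 27 were tested. The list held RT1 genes along with Mr1, Fcgrt, Cd1d1 and Hfe. Mr1 and Hfe did not pass the filter, so the tested genes include Fcgrt and Cd1d1. In BRCA1+/- cortex 0 of 27 were called after 1 week by limma (2 at an unadjusted p under 0.05) and 10 rose after 3 weeks, and in WT cortex 4 rose after 1 week and 7 after 3 weeks, with none lower. Among all tested genes, 4.2% and 9.3% were called higher in BRCA1+/- after 1 and 3 weeks and 12.8% and 8.74% in WT. The 4 of 27 in WT after 1 week lay near the share of all genes. Of the 27, 1 passed the filter through treated groups alone, and without it the counts were the same. The median change was 0.39 and 0.76 in BRCA1+/- after 1 and 3 weeks and 0.55 and 0.70 in WT. RT1-A, the classical class I locus, changed by 0.34 ± 0.28 (log2, SE) in BRCA1+/- after 1 week (adjusted p from limma 0.524) and rose by 1.59 ± 0.28 after 3 weeks (adjusted p from limma 0.00197). In WT it changed by 0.41 ± 0.28 after 1 week (adjusted p from limma 0.31) and rose by 0.89 ± 0.28 after 3 weeks (adjusted p from limma 0.0459). RT1-T24-4 rose by 1.73 ± 0.27 in BRCA1+/- after 3 weeks and by 0.79 ± 0.27 and 1.22 ± 0.27 in WT after 1 and 3 weeks (adjusted p from limma 0.000807, 0.0396 and 0.0078). The RT1 genes are close paralogs whose probes may read one another's RNA, so the count of RT1 genes within the list is uncertain.

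The interferon gamma signal and the factors that drive class I genes were tested in 27 of 31 listed genes. In BRCA1+/- cortex 2 rose after 1 week and 10 after 3 weeks, and in WT cortex 8 and 6, with none lower. The shares of all genes called higher were 4.2% and 9.3% in BRCA1+/- after 1 and 3 weeks and 12.8% and 8.74% in WT. Of the 27, 3 passed the filter through treated groups alone. Among the other 24, 1 and 9 rose in BRCA1+/- and 6 and 5 in WT. The 1 of 24 in BRCA1+/- after 1 week lay near the share of all genes. Ifngr1, a chain of the interferon gamma receptor, rose in all 4, by 1.27 ± 0.30 and 1.24 ± 0.30 (log2, SE) in BRCA1+/- after 1 and 3 weeks and by 1.51 ± 0.30 and 1.43 ± 0.30 in WT (largest adjusted p from limma 0.0205). Irf1, a factor that binds the core searched above, rose by 2.46 ± 0.49 in BRCA1+/- after 3 weeks and by 2.37 ± 0.49 and 2.11 ± 0.49 in WT after 1 and 3 weeks (adjusted p from limma 0.00457, 0.00245 and 0.0108), and its change was 1.23 ± 0.49 in BRCA1+/- after 1 week (adjusted p 0.146). Socs3, a feedback inhibitor of cytokine signalling that answers to IL-6 as well, was called higher in all 4. In WT it was at least 5.76-fold higher after 3 weeks and at least 9.24-fold after 1 week. Neither untreated WT array was well above background for it, so it could hardly have been called lower there. Socs3 and Ifngr1 were the 2 called in BRCA1+/- after 1 week, and 1 of these passed the filter through treated groups alone. Ifng itself and Socs1 were well above background on none of the 16 arrays, so interferon gamma RNA was below what these arrays read.

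Other interferon-stimulated genes were tested in 24 of 38 cases. In BRCA1+/- cortex 8 rose after 1 week and 11 after 3 weeks, and in WT cortex 14 and 9, with none lower. Higher calls made up 4.2% and 9.3% of all genes in BRCA1+/- after 1 and 3 weeks and 12.8% and 8.74% in WT. Of the 24, 5 passed the filter through treated groups alone and so could hardly have been called lower; among the other 19, 5 and 8 rose in BRCA1+/- and 9 and 6 in WT. Gbp2, a guanylate-binding GTPase of host defence, rose by 1.34 ± 0.33 and 2.35 ± 0.33 (log2, SE) in BRCA1+/- after 1 and 3 weeks and by 2.73 ± 0.33 and 2.25 ± 0.33 in WT (largest adjusted p from limma 0.0227). Lgals3bp rose by 1.48 ± 0.30 and 2.98 ± 0.30 in BRCA1+/- and by 1.78 ± 0.30 and 2.92 ± 0.30 in WT (largest adjusted p from limma 0.00868). Parp9 rose by 1.51 ± 0.25 and 1.81 ± 0.25 in BRCA1+/- and by 1.96 ± 0.25 and 1.40 ± 0.25 in WT (largest adjusted p from limma 0.00242). With normexp background correction the counts of this list were 1 and 8 in BRCA1+/- and 6 and 4 in WT, and those of the interferon gamma list 1 and 5 in BRCA1+/- and 3 and 2 in WT.

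**Figure D4:**
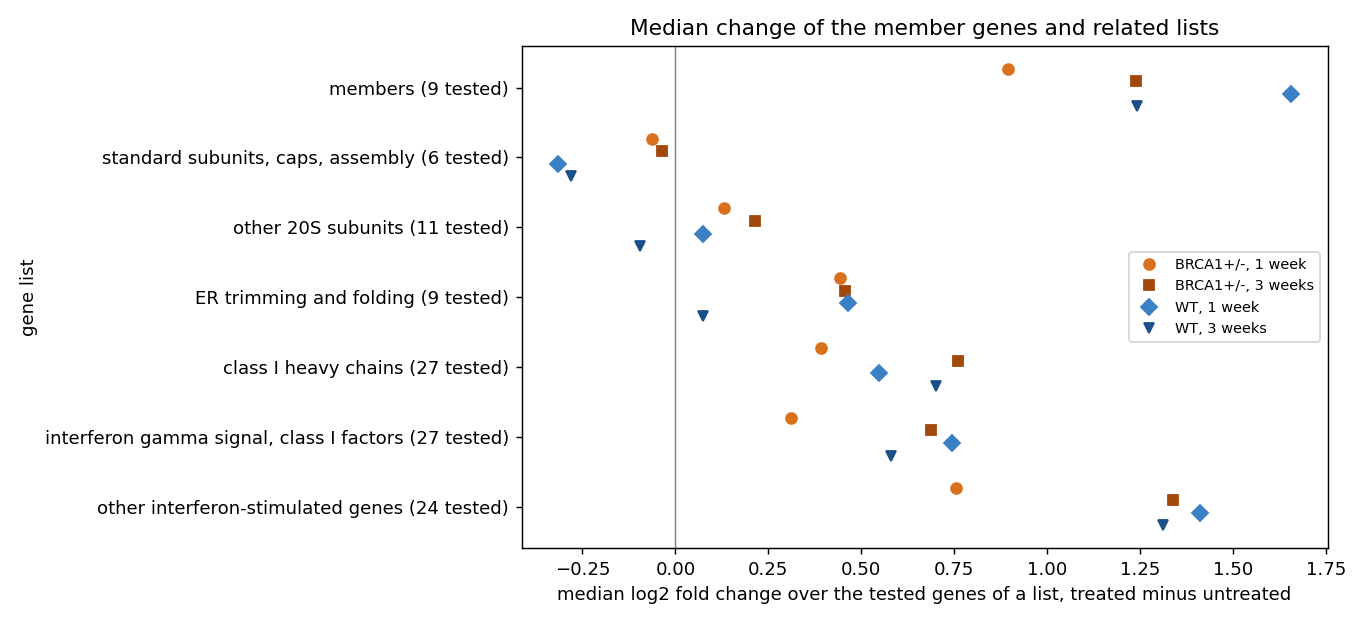
Median log2 fold change (horizontal axis, treated minus untreated) over the tested genes of each list (rows), with circles and squares for BRCA1+/- after 1 and 3 weeks and diamonds and triangles for WT after 1 and 3 weeks. The class I loading genes lie between 0.90 and 1.66 and the other interferon-stimulated genes between 0.75 and 1.41 (5 of those 24 passed the filter through treated groups alone), while the counterparts and the other core subunits lie between -0.31 and 0.21, near 0 and with signs that turn under normexp background correction.

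Leukocyte markers were set beside these changes, since such cells carry the immunoproteasome constitutively. The summed scaled signal of 15 macrophage markers ran from 112 to 214 in BRCA1+/- after 1 week and from 174 to 384 after 3 weeks, against 59.6 to 65.4 untreated, and from 128 to 252 and 190 to 282 in WT, against 49.7 to 74.3 untreated. Of the 13 tested, 7 and 11 rose in BRCA1+/- after 1 and 3 weeks and 8 and 10 in WT. For all genes the shares called higher were 4.2% and 9.3% in BRCA1+/- and 12.8% and 8.74% in WT. Of the 13, 3 passed the filter through treated groups alone; among the other 10, 4 and 8 rose in BRCA1+/- and 7 and 8 in WT. Trem2, a receptor of lipid-handling macrophages, was at least 7.28-fold and at least 16.4-fold higher in WT after 1 and 3 weeks and rose by 3.18 ± 0.55 and 4.34 ± 0.55 (log2, SE) in BRCA1+/- (largest adjusted p from limma 0.00288). The 6 markers of all leukocytes summed to 11.5 to 19.4 and 17.7 to 32.1 in BRCA1+/- after 1 and 3 weeks, against 7.94 to 10.4 untreated, and to 13.1 to 27.0 and 17.1 to 27.3 in WT, against 5.76 to 8.41 untreated. Of these 6, 1 fell in BRCA1+/- after 1 week and 4 rose after 3 weeks, and 2 and 3 rose in WT; without the 1 that passed the filter through treated groups alone, 3 rose in BRCA1+/- after 3 weeks and the other counts were the same. The part of these cells in the class I result was not tested.

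Most T and NK cell markers were near the limit of these arrays, while Cd3d, Cd4 and Ccl5 were well above background on all 16. The 18 markers summed to 20.3 to 32.2 in BRCA1+/- after 1 week and 23.1 to 31.7 after 3 weeks, against 25.8 to 38.3 untreated, and to 26.8 to 35.4 and 25.3 to 32.5 in WT, against 26.9 to 29.3 untreated. Cd2, Cd5, Cd8a, Gzmk, Klrd1 and Ncr1 were well above background on none of the 16 arrays. Markers not well above background on any array of a group numbered 12 and 10 of 18 in BRCA1+/- after 1 and 3 weeks, against 13 untreated, and 12 and 6 in WT, against 15 untreated. Treated groups had 3 arrays and untreated groups 2. Of all probes, 32.6% and 36.1% were well above background on the untreated WT arrays, against 40.4%, 42.2% and 60.3% on the WT 3-week arrays. A change in these marker counts cannot be told apart from such differences in array number and sensitivity. Cd3g, a chain of the T cell receptor complex, did not pass the test. After 3 weeks every treated array lay above every untreated one for it, as for 32.1% of all genes in BRCA1+/- and 28.2% in WT. Its changes were 1.08 ± 0.44 (log2, SE) in BRCA1+/- (adjusted p from limma 0.102) and 1.06 ± 0.44 in WT (adjusted p from limma 0.117). In WT neither untreated array was above background. Of the 5 tested, Cd3g and Nkg7 were the 2 that passed the filter through treated groups alone. The other 3, Cd3d, Cd4 and Ccl5, had a median change of -0.37 and -0.30 in BRCA1+/- after 1 and 3 weeks. In WT it was 0.08 and 0.17, and 0 of the 3 were called. Nkg7 was called higher in WT, with 1 of 3 arrays above background after 1 week, 3 of 3 after 3 weeks and 0 of 2 untreated, and its change was near 0 with normexp background correction. Of 6 B cell markers 1 was tested, and it was called higher in WT after 1 week. The part of T, NK and B cells in the class I result was not tested.

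The tubule itself changed alongside. The summed signal of 15 proximal tubule markers ran from 1817 to 3045 and 1665 to 3826 in BRCA1+/- after 1 and 3 weeks, against 6013 to 7676 untreated, and from 507 to 1239 and 2373 to 3924 in WT, against 7951 to 8481 untreated. Of these 15, 5 and 5 fell in BRCA1+/- after 1 and 3 weeks and 14 and 5 fell in WT, with 1 higher in WT after 3 weeks. Of 12 tubular injury markers, 7 and 10 rose in BRCA1+/- and 9 and 8 in WT, and among the 9 that did not pass the filter through treated groups alone, 5 and 7 rose in BRCA1+/- and 7 and 6 in WT. Havcr1 (KIM-1) is not among those 9, since it passed the filter through treated groups alone and could hardly have been called lower. In BRCA1+/- it was at least 75.4-fold and at least 40.8-fold higher after 1 and 3 weeks. In WT it was at least 78.2-fold and at least 12.5-fold higher (adjusted p from limma at most 6.21e-06 in both genotypes). The 7 tested markers of MHC class II presentation gave 0 and 0 calls in BRCA1+/- (1 each at an unadjusted p under 0.05, limma) and 1 and 3 calls, all higher, in WT; 1 of the 7 passed the filter through treated groups alone, and without it WT had 0 and 2. Of 8 tested endothelial markers, 0 were called in BRCA1+/- by limma (1 and 2 at an unadjusted p under 0.05), and in WT 1 rose and 2 fell after 1 week and 1 rose after 3 weeks; the gene that rose had passed the filter through treated groups alone. Over all tested genes, 4.2% and 9.3% were called higher in BRCA1+/- after 1 and 3 weeks and 3.17% and 6.52% lower. In WT these shares were 12.8% and 8.74% higher and 14.3% and 5.54% lower. Red cell genes, 8 of 8 tested, fell in 7 and 6 cases in BRCA1+/- and in 7 and 6 in WT. The part of these shifts in the class I result was not tested.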

How the data were processed

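Total RNA from kidney cortex was labelled with Cy3 and hybridised 1 sample per array to a 1-colour Agilent rat array. Per the file headers and the submitters' processing notes, spot intensity came from Agilent Feature Extraction 10.7. The deposited processed signal is background-subtracted and not scaled between arrays, and other columns hold flags for control, outlier, saturated and well-above-background spots. A second table, deposited by the authors, holds log2 values that matched the scaled scanner values and served as an alternative.

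Control and outlier spots were left out, spots of a probe averaged, and the log2 signal scaled by the 75th percentile of each array over non-control probes. A probe was kept where some group had it well above background on all its arrays (20404 of 45483 with a value on all arrays), with the brightest probe for each gene. Scanner gene names selected the members, and other symbols were updated through RefSeq accessions where these matched (21229 probes). limma 3.58.1 in R 4.3.3 (lmFit, eBayes) fitted 1 mean per group over 16 arrays with Benjamini-Hochberg adjustment over 15987 genes and 10 residual degrees of freedom, called under 0.05, with two-sided tests. Residuals had a median SD of 0.395 (log2), and the number of arrays limits the precision. The fit was tested on simulated data. Where a group had no array well above background, folds are lower bounds, the brighter group's mean over the mean of, per array of the dim group, the higher of its lowest signal well above background and the probe's own value.

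Named were Brca1, the members, every counterpart, up to 2 genes of smallest p per list and comparison, and the 6 genes most like the members' mean. The result for 1 other promoter motif searched is not reported here. The members and lists were chosen with earlier results of these data known. Alternatives were normexp background correction, quantile normalization, no filter, dim values at the detection limit, the mean of a gene's probes, only the groups compared, slide or replicate number as a block, the authors' table and leaving out each array. Same-numbered arrays of different groups correlated at -0.34 to 0.44 in their deviations (median 0.03 over 36 pairs), so the numbers do not pair samples.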

Additional observations from a re-analysis of the deposited data

Results flagged for a closer look

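Psmb9 was chosen here for its pattern between the times of treatment, in which the arrays of 3 weeks and 1 week did not overlap in either genotype and the signs were opposite. After 3 weeks against 1 week the log2 difference was 0.63 in BRCA1+/- cortex (adjusted p from limma 0.295) and -0.60 in WT cortex (adjusted p from limma 0.11), and neither was called. The test of the difference itself gave 1.23 ± 0.31 (SE, adjusted p from limma 0.124), which was not called, and the comparison was added after the values were seen. In the alternatives tried the difference stayed between 0.93 and 1.23, in those leaving out 1 array between 1.03 and 1.36, and on slides 1 and 2 it was 1.30 and 1.15.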

How the results depend on the processing

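Few arrays per group limit every count here, and dim probes (Tap1, Nlrc5 and Tap2 in untreated WT) are limited by signal over background. The genes called higher were 7 in WT after 1 week (5 to 8 over the alternatives other than slides, 6 to 8 leaving out 1 array), 7 in WT after 3 weeks (4 to 8, and 4 to 6), 3 in BRCA1+/- after 1 week (1 to 5, and 0 to 4) and 6 in BRCA1+/- after 3 weeks (6 to 8, and 4 to 6). The counts that moved by over 1.5 times were 4 in WT after 3 weeks with no filter on dim probes, where more genes are tested, and, in BRCA1+/- after 1 week, 1 with normexp background correction and 5 with the mean of the probes. The cause was not tested. With no filter the count is over all 10 genes and can hold Tap1, which is too dim for a test. In that setting Psmb9 and Psmb10 lost their calls in BRCA1+/- after 1 week. Without untreated BRCA1+/- replicate 1 that count was 0, and without replicate 2 it was 1. Without untreated WT replicate 1 the count after 3 weeks was 4. Within a single slide, with fewer arrays, the counts on slides 1 and 2 were 2 and 1 in WT after 1 week, 2 and 0 in WT after 3 weeks, 0 and 0 in BRCA1+/- after 1 week and 1 and 1 in BRCA1+/- after 3 weeks. For 3 weeks against 1 week in WT, quantile normalization and dim values at the detection limit each called 1 gene, Psmb9, against 0 otherwise, and leaving out 1 array gave 0 to 1. For BRCA1+/- against WT after 1 week, quantile normalization, dim values at the detection limit and the mean of the probes each called 1, Psmb9 again, and leaving out 1 array gave 0. With the replicate number as a block (replicate block) the counts stayed at 7, 7, 3 and 6 in that order, as they did with the authors' table. Under normexp the change of Nkg7 turned to -0.02 in WT after 1 week and -0.08 after 3 weeks. Over all genes, normexp called 1701, 822, 438 and 1561 in that order, against 4340, 2284, 1179 and 2530. With no filter 2656, 973, 456 and 1071 were called, and with only the groups compared in the fit 1752, 3690 and 3868 in WT after 1 and 3 weeks and BRCA1+/- after 3 weeks. For 3 weeks against 1 week in WT, 1332 became 665 with normexp, 472 with no filter and 454 with only those groups.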
